A study of Homo sapiens with 24 samples.

Results

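The 8 genes described here code for the integrin subunits that build most receptors for the RGD motif, the arginine-glycine-aspartate stretch of fibronectin and related matrix proteins. They are the α subunit genes ITGAV, ITGA5 and ITGA8 and the β subunit genes ITGB1, ITGB3, ITGB5, ITGB6 and ITGB8. They were chosen by name, from what their receptors are known to bind. The rule uses no measured value, but earlier results of these data were known when it was made. They are 8 of the 34834 genes with a matched transcript, and all 8 were among the 17453 genes with enough counts to be tested. ITGB3 and ITGA5 are also 2 of the genes that the study singled out as rising in these same libraries, so their direction here is not independent evidence. ITGA2B, which codes for another RGD-binding α subunit, was counted with the 18 remaining integrin subunit genes, and the ligand genes form a list of their own.

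The cells were SK-MES-1, an established human lung cancer line of squamous origin. Low-passage cells of both arms were deprived of serum for 3 h, after which 1 arm received TGFβ1 (2 ng/ml) and the other arm nothing. The comparison of the arms asks how TGFβ changes gene expression over time, and each arm was sampled in triplicate after 0, 8, 24 and 48 h, giving 8 groups and 24 RNA-seq libraries. Levels are given as TPM, which corrects for transcript length and library depth, as mean ± SD with n = 3 unless single libraries are listed.

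Integrins are cell surface receptors made of 1 α and 1 β subunit, and the pair decides the ligand. The α5 subunit pairs with β1 alone and forms the classical fibronectin receptor, and α8 also pairs with β1. The αv subunit is the promiscuous one, since it pairs with β1, β3, β5, β6 or β8 and binds fibronectin, vitronectin, osteopontin and further RGD proteins. αvβ6 and αvβ8 are best known for binding the RGD site of latent TGFβ and releasing or exposing the active cytokine, and can thereby regulate TGFβ signalling. In carcinoma cells these receptors link the matrix to the actin cytoskeleton during spreading and migration.

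The libraries held between 46613589 and 77964234 estimated counts (median 54120879). The stimulation was visible in early TGFβ response genes, of which 7 of 7 passed the F-test upwards, against 21.0% of all tested genes. TGIF1, however, differed by only -0.01 (log2) at 8 h and 0.33 at 48 h. PMEPA1, an inhibitor of Smad signalling, had the largest mean rise of the 7. It held 476 ± 17.1 TPM at 8 h against 47.0 ± 2.54 in untreated cells. Of the 5 epithelial markers, the keratins KRT8, KRT18 and KRT19 were abundant at every time point. Group means ran from 22.2 to 36.1 TPM for EPCAM and from 1.2 to 5.22 TPM for CDH1. EPCAM passed the F-test downwards. CDH1 and KRT18 also passed, with log2 differences of 0.32 and 0.17 at 8 h and -0.35 and -0.19 at 48 h. KRT8 and KRT19 did not pass. Of the 8 squamous and basal markers, KRT5, KRT14, KRT6A and DSG3 had a mean below 0.1 TPM. The other 4 passed the F-test of limma voom. KRT17 was higher (70.5 ± 1.06 TPM in the TGFβ arm at 48 h against 5.41 ± 0.613 in untreated cells), as was PKP1. SOX2 was lower (0.432 ± 0.0557 TPM against 5.23 ± 0.477 at 48 h). TP63 was higher on average over the 3 times. Its log2 differences were 0.8 at 8 h, 1.02 at 24 h and -0.49 at 48 h. The 5 markers of platelets and megakaryocytes summed to 1.76 to 2.96 TPM in untreated libraries and 1.45 to 2.65 TPM in the TGFβ arm, with GP9 and PPBP at or near 0. The 4 endothelial markers stayed at or below 4.82 TPM in sum, with CDH5 near 0. Of the leukocyte markers, CD3E was at 0, while group means ran from 2.64 to 6.55 TPM for ITGB2, 1.37 to 2.01 TPM for PTPRC and 0.443 to 1.79 TPM for CD14, and ITGB2 and PTPRC passed the F-test downwards. The 5 fibroblast markers summed to 192 to 306 TPM in untreated libraries and 188 to 2391 TPM in the TGFβ arm, where COL1A1 and PDGFRB were higher, DCN and LUM were lower and COL1A2 stayed at or below 0.146 TPM. Whether these markers have a part in the integrin results was not tested. In RNA from whole cultures, a different share of cells and a different amount of RNA per cell cannot be told apart.

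The file names carry 4 codes of unstated meaning, and each code covers 6 libraries, namely 1 arm at 0 and 8 h or at 24 and 48 h. At 24 and 48 h the code and the treatment cannot be told apart. The change of a difference between the arms from 0 to 8 h, or from 24 to 48 h, lies within codes, and an offset between codes cancels in it. The 4 libraries numbered replicate 2 at 0 and 24 h stood apart from their groups in both arms, with higher ITGAV and ITGB1 and lower ITGB5. Without these 4 libraries, a setting chosen after the values had been seen, 8 of 8 members passed limma voom at each of 8, 24 and 48 h. In this setting 4785, 5958 and 7776 of all 17372 tested genes passed at these times. With all libraries, 2859, 5112 and 5686 of 17453 passed. Without the 4 libraries the log2 difference at 24 h was 1.42 for ITGAV, 0.69 for ITGB1 and 1.04 for ITGB5. With them it was 1.44, 0.72 and 1.04.

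Promoter sequences are shown for the α subunit genes that rose (ITGAV and ITGA5) and for the β subunit genes of the latent TGFβ receptors, which moved in opposite directions (ITGB6 and ITGB8). They run 5′ to 3′ on the strand of the gene, from 250 bases before to 10 bases after a RefSeq start (GRCh38.p14). Capitals mark CAGAC or its reverse complement GTCTG, the core to which Smad3 and Smad4 can bind, and TGANTCA, the AP-1 motif. The motifs were chosen after values had been seen, and the matches describe letters, not bound sites.
ITGAV, chr2:186589806-186590065, plus strand: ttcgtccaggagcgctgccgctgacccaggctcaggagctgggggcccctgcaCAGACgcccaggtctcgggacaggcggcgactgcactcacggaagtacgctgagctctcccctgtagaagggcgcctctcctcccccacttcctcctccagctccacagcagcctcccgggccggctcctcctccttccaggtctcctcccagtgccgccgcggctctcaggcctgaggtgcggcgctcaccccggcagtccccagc
ITGA5, chr12:54419257-54419516, minus strand: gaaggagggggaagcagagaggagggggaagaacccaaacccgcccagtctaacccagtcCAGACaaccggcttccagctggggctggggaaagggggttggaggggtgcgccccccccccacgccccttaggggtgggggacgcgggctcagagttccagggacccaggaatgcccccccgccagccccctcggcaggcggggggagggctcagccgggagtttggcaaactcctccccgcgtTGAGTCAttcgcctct
ITGB6, chr2:160200263-160200522, minus strand: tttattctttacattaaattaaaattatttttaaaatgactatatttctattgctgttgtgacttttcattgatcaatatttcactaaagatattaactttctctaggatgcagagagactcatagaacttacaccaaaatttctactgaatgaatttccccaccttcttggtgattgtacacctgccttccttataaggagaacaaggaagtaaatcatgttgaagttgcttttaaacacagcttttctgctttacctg
ITGB8, chr7:20330650-20330909, plus strand: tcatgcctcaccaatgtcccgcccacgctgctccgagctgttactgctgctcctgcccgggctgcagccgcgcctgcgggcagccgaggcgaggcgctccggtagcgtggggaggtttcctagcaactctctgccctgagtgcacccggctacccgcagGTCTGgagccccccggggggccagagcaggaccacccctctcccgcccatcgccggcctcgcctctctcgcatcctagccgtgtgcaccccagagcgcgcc

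ITGA5 held 1 CAGAC and 1 TGANTCA, the latter across the start site, the ITGAV window shown and ITGB8 held 1 CAGAC each, and ITGB6 held neither motif. Over all 35116 RefSeq promoters of this length, 40.2% held CAGAC on either strand and 6.92% held TGANTCA in either direction. No match of one motif overlapped a match of the other in the 4 windows shown. The table held 11 promoters of 7 of the 8 members. These include a second ITGAV promoter at chr2:186599955-186600214, not shown, which held neither motif.

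All 8 members differed between the arms, 6 upwards and 2 downwards. In the F-test of limma voom over the differences at 8, 24 and 48 h, ITGAV, ITGA5, ITGB1, ITGB3, ITGB5 and ITGB6 were higher in the TGFβ arm and ITGA8 and ITGB8 were lower. Of all tested genes, 21.0% passed this test upwards and 21.5% downwards. That background depends on the scaling, with 3657 genes up and 3753 down by TMM, 2570 and 5597 by library totals and 9538 and 1305 by 3 reference genes, and the 8 members kept their directions under all 3. At 8 h, 5 members were higher and 2 lower, against 9.12% and 7.26% of all tested genes. At 24 h, 6 were higher and 2 lower, against 15.4% and 13.8%. At 48 h, 6 were higher and 2 lower, against 16.1% and 16.4%. The median log2 difference of the members was 0.67, 1.24 and 1.12 at 8, 24 and 48 h, while the median of all tested genes was -0.016, -0.015 and -0.013. At 0 h no member and 0.0% of all genes passed in limma voom. No member and 800 of all genes had an unadjusted p under 0.05 there, and no member passed in edgeR or DESeq2. The libraries of the arms did not overlap in TPM at 8, 24 and 48 h for any member, 6 of which were higher each time and 2 lower each time, against 8.15% and 10.6% of all tested genes.

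**Figure D1:**
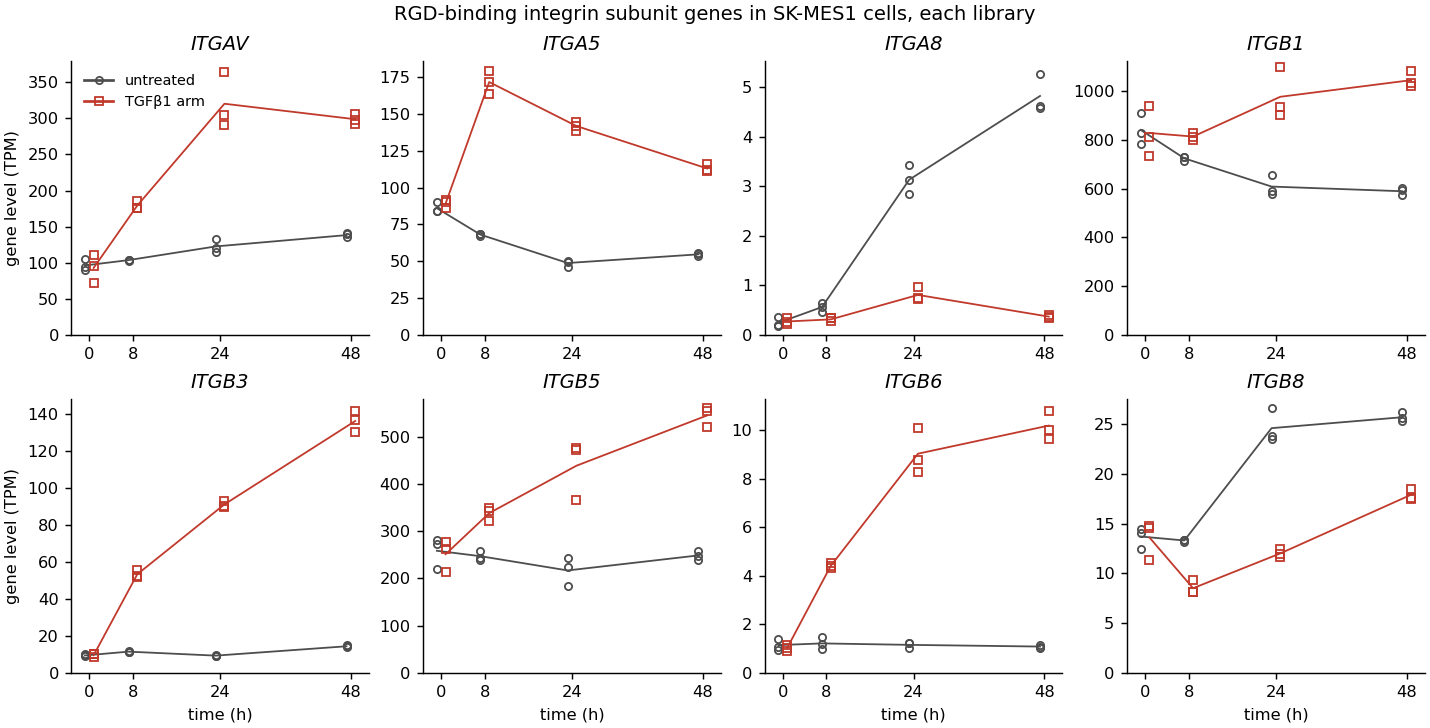
TPM (y axis, from 0) of the 8 genes over time in hours (x axis), with 1 open symbol per library (circles, untreated; squares, TGFβ1 arm) and lines through the means of 3 libraries. The arms coincide at 0 h; ITGB3, ITGB6, ITGB5, ITGAV, ITGA5 and ITGB1 run higher and ITGA8 and ITGB8 lower in the TGFβ1 arm at 8, 24 and 48 h.

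ITGAV (ENSG00000138448, chromosome 2, 186590010 to 186680901, plus strand in GRCh38), the common α subunit of 5 receptors, was the most abundant of the 3 α subunit genes at 24 and 48 h. Untreated libraries held 89.3, 104 and 94.6 TPM at 0 h, 102, 104 and 104 TPM at 8 h, 115, 132 and 120.3 TPM at 24 h and 135, 139 and 140.5 TPM at 48 h. Libraries of the TGFβ arm held 71.8, 110.4 and 96.0 TPM at 0 h, 175, 176 and 186 TPM at 8 h, 291, 365 and 305 TPM at 24 h and 298, 293 and 306 TPM at 48 h. All stimulated libraries lay above all untreated ones from 8 h on, and the 24 and 48 h groups of the TGFβ arm overlapped each other. The difference was 0.87 ± 0.0881 (log2, SE) at 8 h, 1.44 ± 0.0866 at 24 h and 1.16 ± 0.087 at 48 h, which is 2.72-fold at its highest (limma voom F-test, adjusted p = 3.3e-13). Within the TGFβ arm ITGAV rose by 0.90 (log2) from 0 to 8 h (limma voom adjusted p = 4.7e-08), and the untreated change of 0.04 did not pass.

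ITGA5 (ENSG00000161638, chromosome 12, 54395261 to 54419266, minus strand), the α subunit of the fibronectin receptor α5β1, was highest 8 h after stimulation and lower at each later time. In untreated libraries the level was 90.0, 84.0 and 84.3 TPM at 0 h, 67.1, 68.8 and 68.4 TPM at 8 h, 49.7, 46.3 and 50.4 TPM at 24 h and 55.5, 54.8 and 53.6 TPM at 48 h. In the TGFβ arm they held 85.9, 91.4 and 90.3 TPM at 0 h, 179.5, 172 and 164 TPM at 8 h, 142, 145 and 139 TPM at 24 h and 116, 111 and 112 TPM at 48 h. The stimulated groups from 8 to 48 h did not overlap one another, and every untreated library after 0 h lay below every library of 0 h. The arms differed by 1.41 ± 0.0519 (log2, SE) at 8 h, 1.54 ± 0.0534 at 24 h and 1.07 ± 0.0539 at 48 h, which is 2.65-, 2.91- and 2.11-fold (limma voom F-test, adjusted p = 6.1e-18). From 0 to 8 h ITGA5 rose by 1.00 in the TGFβ arm and fell by 0.39 in untreated cells, and the difference at 8 h holds both movements (limma voom adjusted p = 1.9e-12 and 7.9e-06).

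ITGA8 (ENSG00000077943, chromosome 10, 15513954 to 15719922, minus strand), the α subunit of the nephronectin receptor α8β1, was the lowest of the 8 genes at 0 h and moved the opposite way. Untreated libraries held 0.19, 0.355 and 0.178 TPM at 0 h, 0.462, 0.567 and 0.65 TPM at 8 h, 2.84, 3.42 and 3.13 TPM at 24 h and 5.27, 4.62 and 4.57 TPM at 48 h. Stimulated libraries held 0.208, 0.334 and 0.263 TPM at 0 h, 0.331, 0.27 and 0.331 TPM at 8 h, 0.717, 0.955 and 0.742 TPM at 24 h and 0.392, 0.36 and 0.345 TPM at 48 h. The 4 untreated groups did not overlap and were higher at each later time, while every library of the TGFβ arm stayed below 1 TPM. At 48 h the arms differed by -3.66 ± 0.137 (log2, SE), that is 12.6-fold lower in the TGFβ arm, after -0.81 ± 0.159 at 8 h and -1.96 ± 0.105 at 24 h (limma voom F-test, adjusted p = 9.0e-16). The difference at 8 h rested on few counts, with means of 139.5 against 74.3 estimated counts, and it did not pass in limma-trend on log2(TPM + 1), where it was -0.25 with an adjusted p of 0.019, nor as a change from 0 h, where limma voom gave an adjusted p of 0.014. Within untreated cells, the rise was 1.57 (log2) from 0 to 8 h and 0.55 from 24 to 48 h (limma voom adjusted p = 1.9e-06 and 6.2e-06).

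ITGB1 (ENSG00000150093, chromosome 10, 32887273 to 33005792, minus strand), the β subunit shared by most matrix receptors, was the most abundant member in every group. In untreated libraries the values were 785, 911 and 827 TPM at 0 h, 729, 714 and 729.7 TPM at 8 h, 579, 657 and 588 TPM at 24 h and 573, 594 and 601 TPM at 48 h. In the TGFβ arm the values were 733, 940.5 and 812 TPM at 0 h, 811, 800.0 and 830.0 TPM at 8 h, 900.4, 1097 and 933 TPM at 24 h and 1021, 1034 and 1082 TPM at 48 h. The groups of the arms separated from 8 h on, although several groups of different times overlapped. The difference was 0.22 ± 0.0681 (log2, SE) at 8 h, which did not pass (limma voom adjusted p = 0.023), and then 0.72 ± 0.0686 at 24 h and 0.86 ± 0.0689 at 48 h (limma voom F-test, adjusted p = 1.2e-10). ITGB1 passed at 8 h with the replicate 2 libraries of 0 and 24 h left out (limma voom adjusted p = 7.1e-06), at a difference of 0.217. It also passed with TGFβ replicate 2 of 0 h or of 24 h alone left out (0.218 each, limma voom adjusted p = 0.0073 and 0.0086) and in a fit of the 8 h libraries only (0.224, limma voom adjusted p = 1.4e-06). In untreated cells ITGB1 fell by 0.26 from 0 to 8 h (limma voom adjusted p = 0.0052), while the change in the TGFβ arm of -0.06 did not pass. The pseudogene ITGB1P1, which may share reads with ITGB1, held 11.8 to 32.8 TPM over the 8 groups.

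ITGB3 (ENSG00000259207, chromosome 17, 47253827 to 47313743, plus strand), the β subunit of αvβ3 and, in platelets, of αIIbβ3, had the largest rise of the 8. Untreated libraries held 8.77, 9.36 and 9.88 TPM at 0 h, 11.4, 11.8 and 11.1 TPM at 8 h, 9.59, 8.9 and 9.21 TPM at 24 h and 13.7, 14.9 and 14.4 TPM at 48 h. Stimulated libraries held 8.3, 9.86 and 10.2 TPM at 0 h, 52.2, 52.0 and 55.3 TPM at 8 h, 93.0, 90.4 and 89.7 TPM at 24 h and 141, 136 and 130.4 TPM at 48 h. Each later group of the TGFβ arm lay above the one before without overlap, and untreated cells never passed 14.9 TPM. The arms differed by 2.31 ± 0.0573 (log2, SE) at 8 h, 3.36 ± 0.0584 at 24 h and 3.27 ± 0.0556 at 48 h, that is 4.97-, 10.3- and 9.66-fold (limma voom F-test, adjusted p = 5.3e-23). ITGB3 ranked 7 among all 17453 tested genes by the p of this test and 56 by the size of the mean rise. ITGA2B, the gene of its platelet partner, stayed at or below 1.3 TPM in every group mean and did not pass the F-test.

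ITGB5 (ENSG00000082781, chromosome 3, 124761948 to 124901418, minus strand), the β subunit of the vitronectin receptor αvβ5, was the most abundant of the β subunits that pair with αv alone or mainly. The untreated arm held 274, 221 and 281 TPM at 0 h, 243, 259 and 239 TPM at 8 h, 243, 184 and 224 TPM at 24 h and 258, 248 and 239.8 TPM at 48 h. The TGFβ arm held 262, 214 and 277 TPM at 0 h, 343, 349 and 322 TPM at 8 h, 476, 367 and 473 TPM at 24 h and 561, 555 and 520.1 TPM at 48 h. Untreated groups overlapped one another, and the stimulated groups rose in order of time without overlap. The difference was 0.48 ± 0.0724 (log2, SE) at 8 h, 1.04 ± 0.0726 at 24 h and 1.19 ± 0.0723 at 48 h (limma voom F-test, adjusted p = 5.5e-13), the last being 2.28-fold.

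ITGB6 (ENSG00000115221, chromosome 2, 160099667 to 160200313, minus strand), the β subunit of the epithelial latent TGFβ receptor αvβ6, started near 1 TPM. Untreated libraries held 0.945, 1.39 and 1.08 TPM at 0 h, 1.46, 1.19 and 0.963 TPM at 8 h, 1.21, 1.22 and 1.03 TPM at 24 h and 1.02, 1.08 and 1.15 TPM at 48 h. Stimulated libraries held 1.13, 1.04 and 0.893 TPM at 0 h, 4.4, 4.53 and 4.32 TPM at 8 h, 8.29, 10.1 and 8.77 TPM at 24 h and 9.64, 10.01 and 10.8 TPM at 48 h. Untreated groups all overlapped, while the 24 and 48 h groups of the TGFβ arm overlapped only each other. The difference reached 3.18 ± 0.118 (log2, SE) at 48 h, 9.07-fold, after 1.97 ± 0.117 at 8 h and 2.98 ± 0.115 at 24 h (limma voom F-test, adjusted p = 2.4e-17). On the log2(TPM + 1) scale, which shrinks low genes, limma-trend gave 2.42 at 48 h.

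ITGB8 (ENSG00000105855, chromosome 7, 20330702 to 20415754, plus strand), the β subunit of the other latent TGFβ receptor αvβ8, was lower in the TGFβ arm. In untreated cells the libraries held 12.4, 14.1 and 14.5 TPM at 0 h, 13.1, 13.4 and 13.4 TPM at 8 h, 23.5, 26.6 and 23.8 TPM at 24 h and 25.6, 26.2 and 25.3 TPM at 48 h. The libraries under TGFβ held 11.3, 14.8 and 14.6 TPM at 0 h, 8.07, 8.15 and 9.28 TPM at 8 h, 12.4, 11.9 and 11.6 TPM at 24 h and 18.5, 17.5 and 17.6 TPM at 48 h. In the TGFβ arm the level at 8 h was the lowest of all 8 groups and the level at 48 h lay above the starting level, while untreated cells were higher at 24 and 48 h than at 0 and 8 h. The difference was -0.59 ± 0.0812 (log2, SE) at 8 h, -0.97 ± 0.0782 at 24 h and -0.49 ± 0.0772 at 48 h, 1.96-fold lower at 24 h (limma voom F-test, adjusted p = 3.0e-10). The difference at 48 h did not pass when libraries were scaled to 3 reference genes (-0.098, limma voom adjusted p = 0.52), a scaling that put the median of all genes at 0.377 at this time. From 0 to 8 h ITGB8 fell by 0.73 in the TGFβ arm (limma voom adjusted p = 2.6e-07), and the untreated change of -0.09 did not pass.

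**Figure D2:**
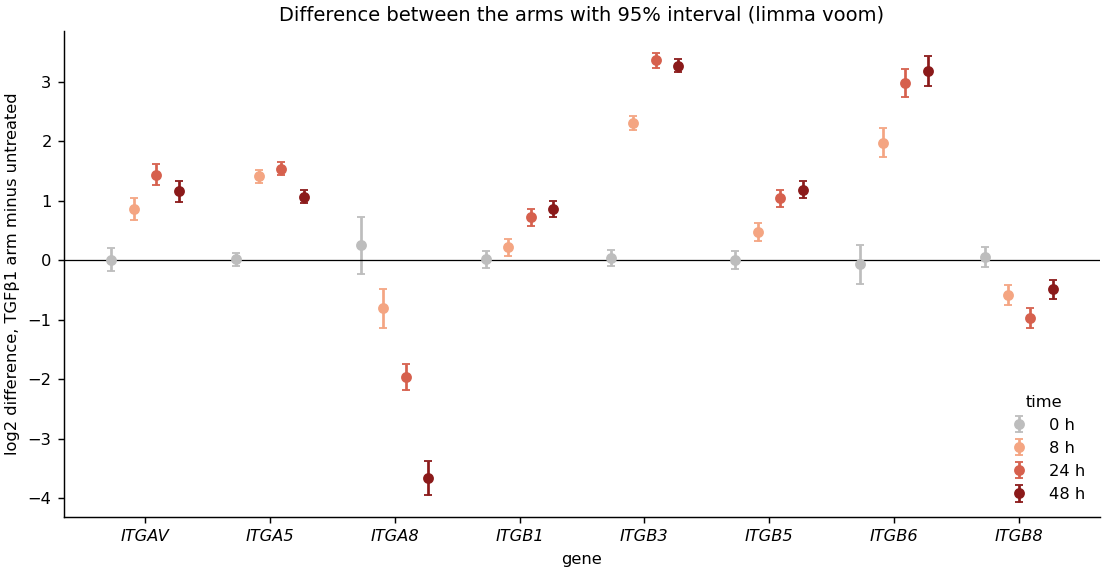
Log2 difference between the TGFβ1 arm and untreated cells (y axis) for each gene (x axis) at 0, 8, 24 and 48 h (light to dark), as limma voom estimates with 95% intervals from 3 libraries per group. All intervals at 0 h include 0, ITGB3 and ITGB6 reach 3.27 and 3.18 at 48 h, and ITGA8 descends to -3.66.

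The change of the difference between the arms from 0 to 8 h, in which an offset between file codes cancels, passed upwards in 5 members and downwards in 1, against 5.05% and 2.84% of all tested genes. It was 2.28 ± 0.0876 (log2, SE) for ITGB3, 2.04 ± 0.192 for ITGB6, 1.39 ± 0.0744 for ITGA5, 0.86 ± 0.127 for ITGAV and 0.48 ± 0.103 for ITGB5. For ITGB8 it was -0.64 ± 0.114, and ITGA8 and ITGB1 did not pass. From 24 to 48 h the difference passed upwards in 1 member and downwards in 2, against 3.5% and 5.61% of all genes. For ITGA5 the rise over untreated cells became smaller, with a change of -0.47 (limma voom adjusted p = 1.9e-04) and for ITGB8 the deficit became smaller, with a change of 0.48 (limma voom adjusted p = 0.0041), and for ITGA8 the deficit became larger, with a change of -1.69 (limma voom adjusted p = 5.8e-07). The change of ITGB8 did not pass when any 1 of 5 libraries was left out, namely untreated replicate 2 at 24 h, untreated replicate 1 or 3 at 48 h, TGFβ replicate 3 at 24 h or TGFβ replicate 1 at 48 h, with values of 0.415 to 0.481 and adjusted p of 0.011 to 0.015 in limma voom.

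Within the arms, changes from 0 to 8 h and from 24 to 48 h stay within a file code. From 0 to 8 h, in the TGFβ arm 5 members rose and 1 fell, against 17.5% and 16.3% of all genes, and in untreated cells 2 rose (ITGA8 and ITGB3) and 2 fell (ITGA5 and ITGB1), against 13.2% and 12.7%. The members that rose with TGFβ were ITGAV, ITGA5, ITGB3, ITGB5 and ITGB6, and ITGB8 fell. From 24 to 48 h, ITGB3 and ITGB8 rose and ITGA5 and ITGA8 fell in the TGFβ arm, against 12.4% and 13.4% of all genes. In untreated cells ITGB3 and ITGA8 rose and none fell, against 14.7% and 13.6%. ITGB3 therefore rose in both arms in this interval, by 0.49 in the TGFβ arm and 0.58 in untreated cells, and the change of its difference of -0.09 did not pass (limma voom adjusted p = 0.56).

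Because αv is shared, the levels of its β partners were set beside one another. These values are descriptions of mRNA and say nothing of assembled receptors. ITGB3, ITGB5, ITGB6 and ITGB8 together held 289.8 ± 8.92 TPM in untreated cells at 48 h and 709.6 ± 27.1 TPM in the TGFβ arm, after 283 ± 32.5 and 275 ± 32.6 at 0 h. ITGB5 was the largest share in every group. Its summed TPM includes short transcripts, and ITGB5-201 held only 35.0 to 37.4% of it over the 8 groups. ITGB5-203, without a defined coding sequence, held 14.8% by TPM but 3.02% by estimated counts in the TGFβ arm at 48 h. The partner sums, shares and ratios that include ITGB5 depend on summing all these transcripts. In the TGFβ arm the share of ITGB5 went from 91.2 ± 1.73% at 0 h to 76.9 ± 0.29% at 48 h. In untreated cells it went from 91.4 ± 1.35% to 85.8 ± 0.602%. The share of ITGB3 in the TGFβ arm was 3.47 ± 0.601% before stimulation, 13.2 ± 0.841% after 8 h, 16.7 ± 1.9% after 24 h and 19.2 ± 0.177% after 48 h, against 4.95 ± 0.317% in untreated cells at 48 h. ITGB3 was thus the partner whose share grew by most percentage points in stimulated cells, although ITGB5, summed over all its transcripts, gained more TPM.

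The β subunits of the latent TGFβ receptors came closer to each other in level. ITGB8 exceeded ITGB6 in every library, by 25.1, 24.3 and 22.1-fold in the untreated libraries at 48 h and by 1.92, 1.75 and 1.62-fold in those of the TGFβ arm. At 24 h the stimulated ratios were 1.5, 1.18 and 1.33. The share of ITGB6 among the 4 partners was 1.44 ± 0.144% in the TGFβ arm at 48 h and 0.374 ± 0.0334% in untreated cells, and that of ITGB8 was 2.52 ± 0.074% and 8.87 ± 0.257%.

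The sum of the 4 partners holds all ITGB5 transcripts, so ratios to it depend on them. The TPM of ITGAV over this sum was 0.344 ± 0.106 in the TGFβ arm and 0.345 ± 0.0695 in untreated cells at 0 h. At 8 h it was higher in the TGFβ arm, with 0.43, 0.426 and 0.475 against 0.38, 0.365 and 0.394 in untreated libraries. At 24 h the means were 0.593 ± 0.147 and 0.494 ± 0.096, and at 48 h the TGFβ arm was lower, with 0.408, 0.407 and 0.451 against 0.452, 0.479 and 0.501. The libraries of the arms thus did not overlap at 8 h or, in the opposite direction, at 48 h, and they overlapped at 0 and 24 h, where the replicate 2 libraries were highest. The ratio of ITGAV to ITGB3 went from 9.76 ± 1.3 at 0 h to 2.2 ± 0.128 at 48 h in the TGFβ arm, against 9.65 ± 0.267 in untreated cells at 48 h.

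For the fibronectin receptor α5β1, the β1 gene exceeded the α5 gene in every library. ITGB1 over ITGA5 was 10.6 ± 0.239 in untreated cells at 8 h and 4.74 ± 0.283 in the TGFβ arm, and at 48 h 10.8 ± 0.441 and 9.25 ± 0.433. Each stimulated library at 8 h, with ratios of 4.52, 4.65 and 5.06, lay below every untreated library of any time. ITGAV over ITGA5 was 1.04 ± 0.0808 at 8 h and 2.64 ± 0.083 at 48 h in the TGFβ arm, and 1.52 ± 0.00781 and 2.53 ± 0.0931 in untreated cells. ITGA5 made up 12.7 ± 0.514% of the summed TPM of the 12 α partners of ITGB1 in the TGFβ arm at 8 h and 6.49 ± 0.21% in untreated cells, and ITGAV 21.2 ± 2.27% and 13.7 ± 1.23% at 24 h. The laminin receptor gene ITGA3 held the largest of these shares, 32.8 ± 0.757% in the TGFβ arm at 48 h and 58.1 ± 0.384% in untreated cells.

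**Figure D3:**
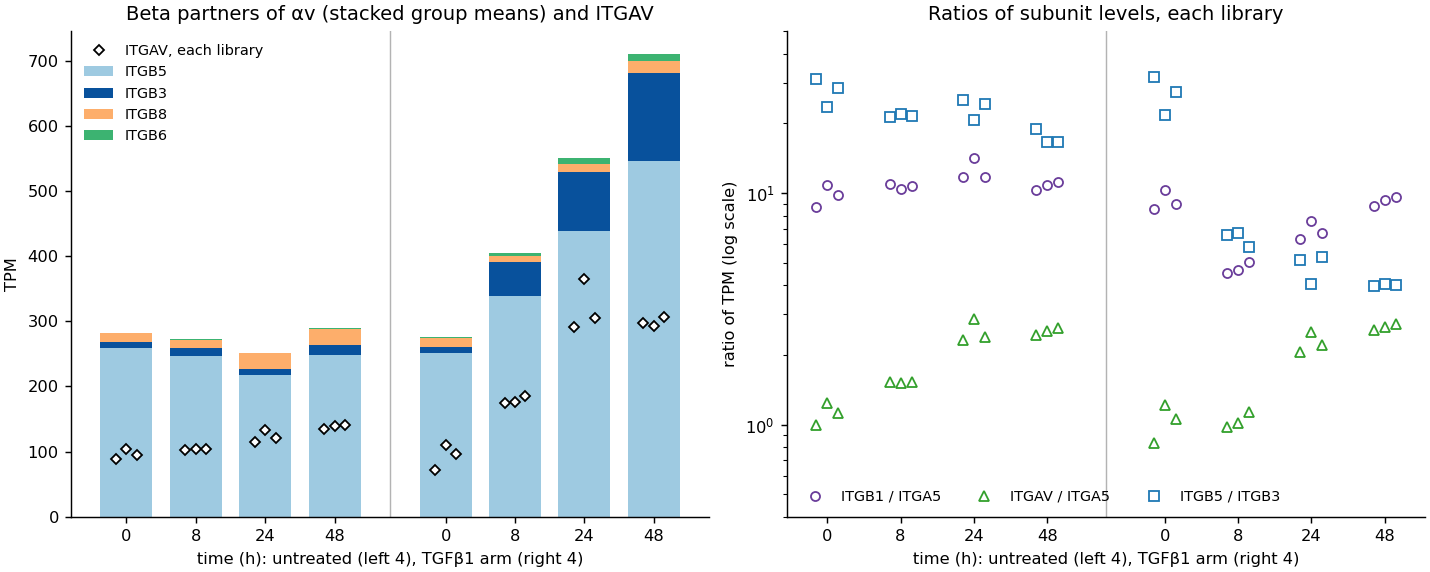
Left, TPM (y axis) of ITGB5, ITGB3, ITGB8 and ITGB6 as stacked means of 3 libraries for each arm and time in hours (x axis), with ITGAV of each library as diamonds; right, ratios of TPM in each library on a log axis. The stack grows to 709.6 TPM at 48 h in the TGFβ1 arm, and the ratio of ITGB5 to ITGB3 drops to 4.01 there. TPM is summed over all transcripts of a gene, which for ITGB5 include short ones.

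In 6 members a single transcript held most of the TPM in every group. ITGA5-201 held 91.0 to 96.5% of the TPM of ITGA5 over the 8 groups, ITGB1-201 88.0 to 91.1%, ITGAV-201 75.6 to 84.7% and ITGB8-201 79.3 to 86.7%. ITGB3-201 held 93.4 ± 1.21% of ITGB3 in untreated cells at 48 h and 94.1 ± 0.756% in the TGFβ arm. ITGB5 was spread over 4 named transcripts, of which ITGB5-201 held 35.0 to 37.4% by TPM but 78.2% by estimated counts in the TGFβ arm at 48 h. TPM divides by transcript length and counts do not. ITGB6-201 held 74.5 ± 2.95% in the TGFβ arm at 48 h and 64.8 ± 14.5% in untreated cells, where counts were low. ITGA8-201 carried 93.0 ± 3.59% of ITGA8 in untreated cells at 48 h. Genes with a matched transcript that overlap a member in the annotation were low in every single library. The highest values were 1.09 TPM for AK3P5 on the strand opposite ITGB1, 1.13 TPM for ENSG00000259753 in ITGB3 and 1.04 TPM for ENSG00000285155 in ITGB6. The last, a maximum over the libraries of both arms, is near the untreated level of ITGB6 itself.

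Of the 18 remaining integrin subunit genes, 7 passed the F-test upwards and 6 downwards, against 21.0% and 21.5% of all tested genes. Their median mean log2 difference was 0.02, against 1.03 for the RGD-binding members and -0.019 for all tested genes. The 3 that were at least 2-fold higher on average were the collagen receptor genes ITGA11 and ITGA2 and the fibronectin and VCAM1 receptor gene ITGA4. ITGA4 was low, with 3.17 ± 0.341 TPM in the TGFβ arm at 48 h against 0.61 ± 0.06 in untreated cells. At 0 h ITGA4 held 2.36 ± 0.0921 TPM in the TGFβ arm and 2.49 ± 0.232 in untreated cells. ITGA11 reached 348 ± 13.5 TPM at 48 h against 60.2 ± 3.4 in untreated cells, and its mean difference was 1.88 ± 0.0371 (log2, SE; limma voom F-test, adjusted p = 1.7e-19). ITGA11 made up 22.6 ± 0.7% of the α partners of ITGB1 in the TGFβ arm at 48 h, more than ITGAV or ITGA5. The laminin receptor gene ITGA6 did not pass (limma voom adjusted p = 0.24), with 55.2 ± 1.61 TPM against 59.9 ± 1.52 at 48 h.

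Among the 17 genes of RGD-bearing ligands, 16 were tested, with a median of 0.29 (log2). The F-test was passed upwards by 8 and downwards by 6, against 21.0% and 21.5% of all tested genes. FN1, the gene of fibronectin itself, held 334 ± 14.5 TPM at 8 h in the TGFβ arm against 349 ± 0.604 in untreated cells, and 724 ± 14.5 against 397 ± 17.3 at 48 h, a difference of -0.04 and 0.88 (log2; limma voom F-test, adjusted p = 3.2e-12). TGFBI, a matrix protein that binds αv integrins, reached 1851 ± 176 TPM at 24 h against 314 ± 6.62, with a mean difference of 2.32 ± 0.0189 (log2, SE; limma voom F-test, adjusted p = 4.4e-25). THBS1, thrombospondin, reached 1106 ± 37.5 against 365 ± 16.6 TPM at 48 h and TGFB1, the gene of the cytokine, 174 ± 10.03 against 64.1 ± 0.826, and both rose at least 2-fold on average. SPP1, osteopontin, was lower, with 220.1 ± 8.65 against 361 ± 14.0 TPM at 24 h. The vitronectin gene VTN stayed at or below 0.153 TPM and was not tested. NPNT, the nephronectin gene and ligand of α8β1, stayed below 1 TPM in every group mean. FGA, fibrinogen, passed downwards but was listed at 0 in every group mean of the TGFβ arm and at most 0.224 TPM in untreated cells.

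Of the 27 genes that activate integrins or link them to actin, 16 passed upwards and 3 downwards, with a median of 0.33 (log2). The shares of all tested genes were 21.0% and 21.5%. The 2 with at least 2-fold mean rise were LIMS1, an adaptor of the integrin-linked kinase complex, and MYO10, the myosin that carries integrins into filopodia. MYO10 was among the candidates that the study took from these libraries, and it was then chosen by its upregulation in a patient cohort. LIMS1 reached 152 ± 1.89 TPM at 48 h against 30.1 ± 1.12, and its near-identical copies make the split of its reads uncertain. MYO10 reached 49.0 ± 0.955 TPM at 8 h against 22.3 ± 0.576 (limma voom F-test, adjusted p = 1.1e-20). The next genes are named for their role after values had been seen. TLN1, the gene of talin, which binds β subunit tails, did not pass, with a mean difference of 0.10 ± 0.0465, whereas the kindlin gene FERMT2 passed with 0.51 ± 0.0379. TNS3, a tensin, was lower, with 81.7 ± 5.62 TPM at 24 h against 154 ± 8.56.

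Latent TGFβ is the substrate of αvβ6 and αvβ8. Of the 10 genes listed for its storage and activation, 6 passed upwards and 2 downwards, against 21.0% and 21.5% of all tested genes. Their median was 0.85 (log2). LTBP2, listed here by its gene family and also on the list of early response genes, held 76.3 ± 1.39 TPM at 48 h against 20.2 ± 1.44. Its family members LTBP1 and LTBP3 also passed upwards, with mean differences of 0.93 and 0.76 (log2), and LTBP4 did not pass. FURIN, the protease that processes the TGFβ precursor, held 161 ± 4.08 TPM at 8 h against 61.1 ± 2.62.

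**Figure D4:**
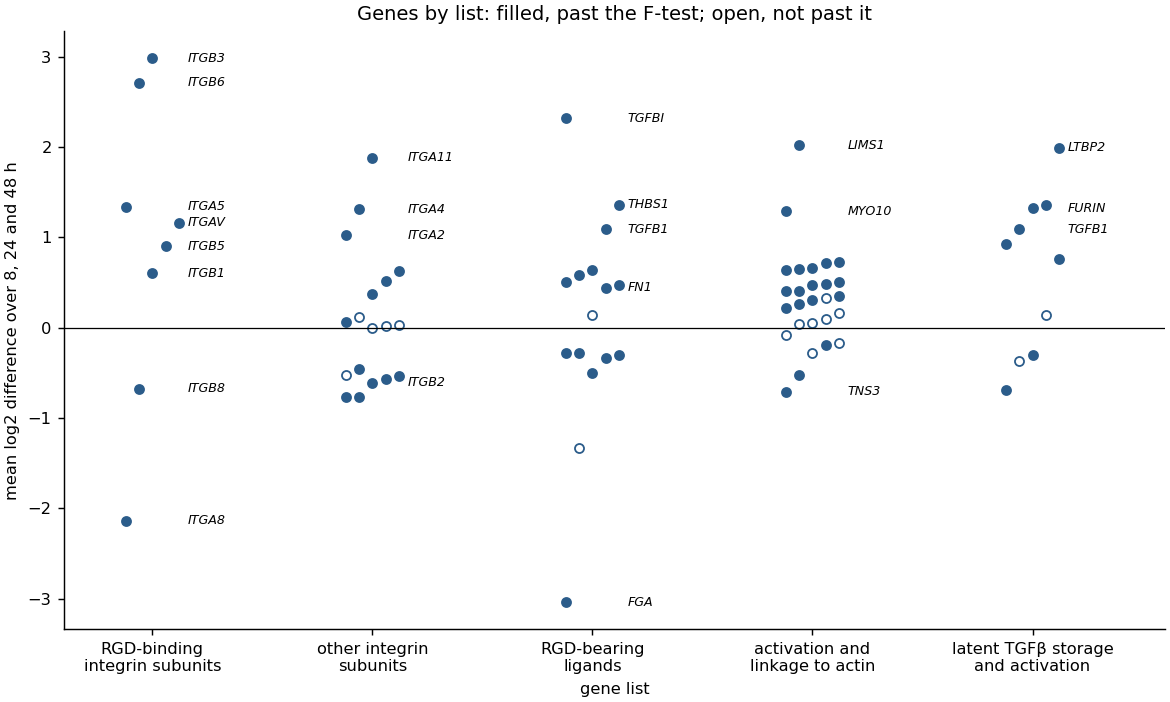
Mean log2 difference over 8, 24 and 48 h (y axis) of each tested gene in 5 lists (x axis), filled where the F-test passed an adjusted p of 0.01 and open where it did not. The members spread from -2.14 (ITGA8) to 2.98 (ITGB3), while most genes of the other integrin list and of the actin linkage list lie within 1 of 0.

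The genes with the most similar time courses were found by the root mean square distance between centred log2 profiles over the 8 groups, taken over 3 libraries each, for the 6 members with an at least 2-fold difference at some time. ITGB3 was closest to AQP1 (a water channel, distance 0.161), SKIL (a repressor of Smads, 0.265) and PRDM16 (0.267). ITGB5 was closest to MMP14 (a membrane-bound collagenase, 0.0793), RYBP (0.0847) and ELK3 (0.0866), distances that were smaller than those of ITGB3. ITGA5 was closest to SRRD (0.13), EFR3B (0.149) and AKAP12 (0.151), and ITGAV to MAMDC2 (0.0942), BMPR2 (a receptor for bone morphogenetic proteins, 0.133) and RFK (0.135). ITGB6 was closest to STON2 (0.142), LDLRAD4 (an inhibitor of TGFβ signalling, 0.19) and DACT1 (0.211). ITGA8 stood farther from its closest genes, A2M, RANBP3L and RARRES1, at 0.513, 0.543 and 0.559. None of these neighbours was another member.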

How the data were processed

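RNA from SK-MES-1 cells was sequenced in 24 libraries, 3 for each arm at 0, 8, 24 and 48 h. The authors quantified each library with kallisto 0.43.0 against Ensembl 79 transcripts (GRCh38) and deposited, for each of 173259 transcripts, an effective length, an estimated count (not normalised) and a TPM value. Transcripts were assigned to genes through GENCODE 44, which held 155518 of them (89.76%) with 94.82 to 95.18% of the estimated counts, and the other 17741 were left out. Estimated counts and TPM were summed per gene. Summed counts were rounded, the 17453 genes that reached 10 counts in 3 or more libraries were tested, and TMM factors with limma voom 3.58.1 (R 4.3.3, edgeR 4.0.16) gave 1 mean per group over all 24 libraries. The main test was an F-test over the arm differences at 8, 24 and 48 h, with Benjamini-Hochberg adjustment over all tested genes and a threshold of 0.01. Single time points, the change of the difference from 0 to 8 h and from 24 to 48 h, and changes within an arm were contrasts of the same fit. Errors of TPM are SDs of 3 libraries and errors of log2 differences are SEs of the fit.

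Alternatives were edgeR and DESeq2 1.42.0 tests, limma-trend on log2(TPM + 1) or with 0.1 in place of 1, other library scalings, other count minimums, a replicate block, other sets of libraries and leaving out each library. A planned scaling and 1 marker gene are not reported here, and a scaling to 3 reference genes was added after the data had been seen. TPM shares and ratios within a library are descriptions without a test. The described genes were the 8 members, the genes of the lists past the F-test with at least 2-fold mean difference or needed beside a member, and for each member with an at least 2-fold difference the 3 protein-coding genes with the nearest profile. The members and lists were chosen with earlier results of these data known. The study describes the 3 replicates as biological, and p-values measure the spread between these samples in 1 cell line. kallisto splits reads of similar transcripts by model, and no strand setting is given in the sources used here. Promoters are RefSeq sequences of GRCh38.p14. Coordinates are those of GENCODE 44 on GRCh38.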

Additional observations from a re-analysis of the deposited data

Results flagged for a closer look

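For 3 genes the difference between the arms itself changed between 24 and 48 h in the limma voom interaction test. For ITGA5 the log2 difference changed by -0.47 (adjusted p = 1.9e-04), from 1.54 to 1.07. For ITGA8 it changed by -1.69 (adjusted p = 5.8e-07), from -1.96 to -3.66. For ITGB8 it changed by 0.48 (adjusted p = 0.0041), from -0.97 to -0.49. Both time points of an arm carry the same file code, and no cause was tested.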

How the results depend on the processing

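The number of members past each threshold stayed within 1.5 times its reported value in all 274 recomputations, a wide limit for counts of at most 8. With limma-trend on log2(TPM + 1), for example, 6 members passed at 8 h, against 2151 of all 17453 tested genes. In the change from 0 to 8 h 5 members passed, and the count over all genes is not given here. No difference of a single member changed sign in any recomputation. Of the single-gene recomputations, 1553 kept their call, 6 passed newly, 10 no longer passed and 7, all transcript shares, moved by more than 1 SD. Scaling to 3 reference genes (GUSB, HPRT1 and GAPDH), added after seeing the data, put the median log2 difference of all genes at 0.354 at 24 h and 0.377 at 48 h, and ITGB8 then gave -0.098 at 48 h and a change of 0.503 from 24 to 48 h, neither of which passed in limma voom (adjusted p = 0.52 and 0.088). Library totals put that median at -0.11 at 24 h. The 8 h difference of ITGB1 had adjusted p between 1.4e-06 and 0.23 over the alternatives, and that of ITGA8 ranged from -1.057 to -0.25, with 3 alternatives that did not pass (limma voom or limma-trend adjusted p of 0.01 to 0.019). Leaving out the 4 replicate 2 libraries of 0 and 24 h, chosen after seeing the data, gave a 24 to 48 h change of -0.258 for ITGAV, which passed in limma voom (adjusted p = 0.0059). With a replicate block, 8 members passed the F-test, 8 passed at 8 h, 7 changed from 0 to 8 h and 3 from 24 to 48 h. Over all 17453 tested genes, 8092 passed the F-test and 3198 passed at 8 h in this setting. For its changes of the difference the count over all genes is not given here. ITGB1 at 8 h then passed in limma voom with 0.218 (adjusted p = 0.0039). Deviations of same-numbered libraries of the arms correlated between -0.06 and 0.248, above 0.1 in 4 of 12 pairs, so the numbers were not treated as pairs. Over all tested genes, the calls at 8 h numbered 2859 (1592 higher), against 5260 with the libraries of that time only, 4785 without the 4 replicate 2 libraries and 1376 as changes from 0 h, and 1740 of 2389 were higher by the reference genes, 1139 of 3355 by library totals and 1326 of 2964 by upper-quartile factors. At 24 h they numbered 5112 (2696 higher), against 2731 with the libraries of that time only, 2893 as changes from 0 h and 8776 by the reference genes (8063 higher), with 1900 of 5560 higher by library totals and 2199 of 5241 by upper-quartile factors. At 48 h they numbered 5686 (2816 higher), against 3611 as changes from 0 h and 9296 by the reference genes (8333 higher), with 2169 of 6096 by library totals. The F-test called 7410 genes, and 4354 as changes from 0 h.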
